A study of Mus musculus with 6 samples.

Results

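The actin cytoskeleton and motility genes are a set of 45 genes, chosen by name, that encode actin and the proteins that polymerise, branch, cap, cut, bundle, anchor and pull on its filaments. All 45 were found among the 47561 features listed for each library, and all 45 were among the 8523 genes tested, those that reached 1 FPKM in 3 or more libraries. The libraries came from neutrophils sorted by flow cytometry from the peripheral blood of mice, 3 libraries from negative controls and 3 from mice given AVP, and the blood was profiled after 30 days of administration. The labels do not expand AVP, name no strain, age, sex, dose or vehicle, and leave unsaid whether replicates are separate mice. The p-values therefore rest on replicate spread that may be purely technical. In bulk samples, fewer cells of a type and less RNA per cell cannot be told apart. Levels are in FPKM (sequenced fragments, corrected for transcript length and for library depth), a unit inferred from the values, so genes of different length can be set side by side.

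Neutrophils move by amoeboid crawling, in which a branched actin network pushes out the leading edge and a contractile network of actin and myosin II pulls in the rear. Actin monomers are held in reserve by thymosins, passed to growing filament ends by profilin, and nucleated into branches by the Arp2/3 complex under WASP and WAVE proteins or into straight filaments by formins. Capping proteins stop growth at the fast-growing end, and cofilin and its partners take old filaments apart.

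The sorted cells carried the transcripts of neutrophils. All 12 neutrophil markers examined were above 0 in some library, Ltf only in control replicate 1 (0.111 FPKM). Their summed level, nearly all from the calprotectin genes S100a8 and S100a9, was 169890 to 190070 FPKM in the controls against 165410 to 193840 FPKM with AVP. The sum hides single markers. As deposited, Retnlg was at 4925 to 5538 FPKM in the controls and 9729 to 11050 FPKM with AVP. Ngp was likewise higher in every AVP library (0 to 13.6 and 13.9 to 39.6 FPKM). Mmp9 was lower in every AVP library (229 to 374 and 101 to 197 FPKM), and the other markers overlapped. RNA of other blood cells was also present. The 10 red cell markers summed to 102760 to 154940 FPKM in the controls against 119480 to 242670 FPKM with AVP, with AVP replicate 1 highest. The 10 B cell markers, of which Igkc was the largest part, summed to 5361 to 8243 FPKM in the controls against 1356 to 5362 FPKM with AVP. AVP replicate 1 was lowest. The 10 monocyte markers summed to 1825 to 2671 and 1333 to 2863 FPKM. The 8 basophil markers summed to 337.9 FPKM in AVP replicate 1 and to at most 31.1 FPKM in any other library, and the 10 T and NK cell markers to 161 FPKM in AVP replicate 3 and at most 15.1 FPKM elsewhere, with Cd3e, Cd8a and Cd4 listed at 0 throughout. The 10 platelet markers summed to 132 to 203 FPKM in the controls against 103 to 266 FPKM with AVP, with Gp5 and Tubb1 at 0 throughout, and the 7 eosinophil markers to 46.8 to 115 and 16.6 to 83.9 FPKM, with Prg2, Epx and Ear1 at 0. Such cells express actin genes too, and the part of their RNA in the values that follow was not tested.

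Actin genes are textbook targets of serum response factor, which binds the CArG box, so the promoters were searched for it first. RefSeq promoter windows of the GRCm38.p6 assembly were matched for 40 of the 45 genes (52 windows, some genes having several starts); Actb, Cotl1, Diaph1, Lsp1 and Twf2 had none. In the 250 bases before the start, read on both strands, a CArG box was present in 4 of 40 genes (10%), against 439 of 27025 genes (1.62%) with any window in the table. The 4 were Actg1, Vcl, Myl6 and Arpc4. The stretches of Actg1, Vcl and Arpc4 are printed in full, each 5′ to 3′ on the strand of its gene with the CArG box in capitals, because they hold 3 of the 4 matches and belong to genes whose values differed in direction; the match of Myl6, CCTTATATGG, lay 40 bases before a start inside the gene. The Actg1 stretch is chr11:120348496-120348745 on the minus strand, that of Vcl chr14:20929148-20929397 on the plus strand, and that of Arpc4 chr6:113377863-113378112 on the plus strand.
Actg1: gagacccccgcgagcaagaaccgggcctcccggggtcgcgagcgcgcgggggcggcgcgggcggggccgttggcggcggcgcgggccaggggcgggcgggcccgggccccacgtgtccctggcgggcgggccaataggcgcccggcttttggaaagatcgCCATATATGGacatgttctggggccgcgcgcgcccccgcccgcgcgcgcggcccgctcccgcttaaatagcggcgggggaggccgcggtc
Vcl: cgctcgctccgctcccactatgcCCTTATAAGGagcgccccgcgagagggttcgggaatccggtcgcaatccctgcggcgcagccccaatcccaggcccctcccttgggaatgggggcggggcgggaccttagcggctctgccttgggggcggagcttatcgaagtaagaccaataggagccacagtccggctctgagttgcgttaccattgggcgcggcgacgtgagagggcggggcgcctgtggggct
Arpc4: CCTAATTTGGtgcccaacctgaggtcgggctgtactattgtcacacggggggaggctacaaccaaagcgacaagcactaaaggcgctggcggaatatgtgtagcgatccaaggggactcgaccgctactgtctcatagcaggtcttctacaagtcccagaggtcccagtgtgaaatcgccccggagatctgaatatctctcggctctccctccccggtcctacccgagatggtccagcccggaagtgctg
The box ended 80 bases before the start in Actg1, 217 bases in Vcl and 240 bases in Arpc4. The motif GGGCGG, the core of the GC box, was present on either strand in 28 of the 40 genes (70.0%) against 35.4% of all genes with a window, and TATAAA in 4 (10%) against 14.3%. In 94 genes of the wider list of other actin pathway genes described below, GGGCGG was present in 70.2%, the CArG box in 4.26% and TATAAA in 6.38%. The share of GGGCGG was thus not particular to the set. The CArG box, GGGCGG and TATAAA can overlap in a window and were counted separately, and a match describes letters in the window, not binding.

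Summed, the 45 genes made up 9.62%, 7.79% and 9.14% of all FPKM in the control libraries and 7.45%, 8.21% and 7.41% in the AVP libraries. All FPKM includes red cell RNA, whose markers summed to 242670 FPKM in AVP replicate 1 and to at most 154940 FPKM in a control. Its part in these shares was not tested. Most of the summed level of the 45 genes was 1 transcript, that of Tmsb4x, which encodes thymosin beta 4, the main protein that holds actin monomers in reserve. It ranked 4th among all features, and Actb, encoding beta-actin, ranked 8th. Mean levels over the 6 libraries reached 1000 FPKM or more in 5 genes (Tmsb4x, Actb, Pfn1, Myl6 and Arhgdib), lay from 100 to under 1000 FPKM in 20 and under 100 FPKM in 20, of which Tln1, Actn1 and Myh9 were under 10 FPKM. The lowest in rank was Tln1, at 4330 of all features.

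**Figure D1:**
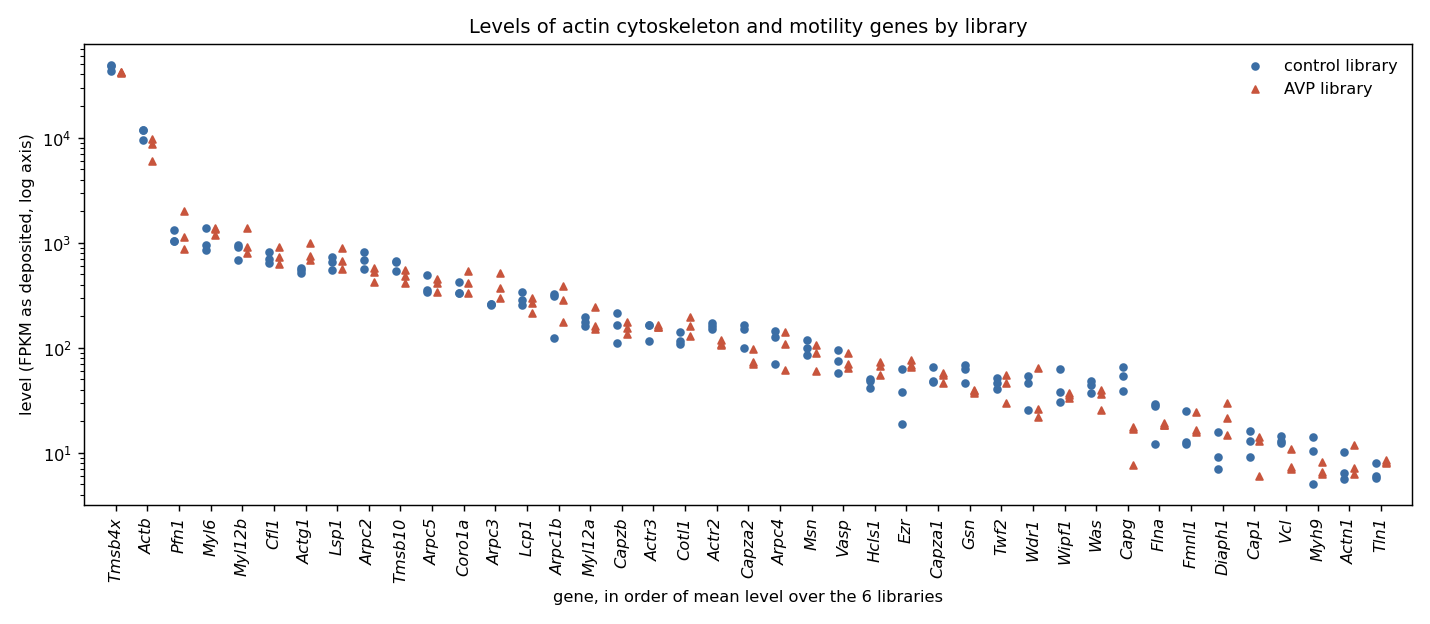
Level in each library of the genes described here, in FPKM as deposited on a log axis, with genes in order of their mean over the 6 libraries (circles, 3 control libraries; triangles, 3 AVP libraries). Tmsb4x and Actb stand above all others, and for most genes the symbols of the groups overlap.

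In the comparison of AVP with control, which asks how the genes' transcripts in blood neutrophils differed after AVP, 0 of the 45 genes passed an adjusted p of 0.05 over all genes by limma, as did 0 of all 8523 genes tested (0% called). The lowest adjusted p among the 45 was 0.295, for Capg. At an unadjusted limma p under 0.05 stood 5 of 45 (11.1%), 3 higher and 2 lower after AVP, against 8.47% of all genes tested (4.69% higher and 3.78% lower). The control and AVP libraries did not overlap in 10 of 45 genes (22.2%), 5 higher and 5 lower, against 13.9% of all genes tested (7.4% higher and 6.54% lower). Under a stricter filter of 10 FPKM in 3 libraries, which left 3675 genes and 42 of the 45, adjusted p was under 0.05 for 0 of the 42 and for 0.299% of all. There, the unadjusted limma p was under 0.05 for 3 higher and 2 lower of the 42, against 6.26% and 4.08% of all (10.3% together). Groups did not overlap in 4 higher and 5 lower of the 42, against 9.47% and 7.07% of all (16.5% together). The median log2 difference of the 45 was 0.01, against -0.04 over all genes, and 23 lay above 0 and 22 below. Only Capg, Diaph1 and Ezr (6.67% of the 45) differed by more than 1 on the log2 scale, against 22.4% of all genes. The set's median thus lay near 0, with single genes apart on either side.

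**Figure D2:**
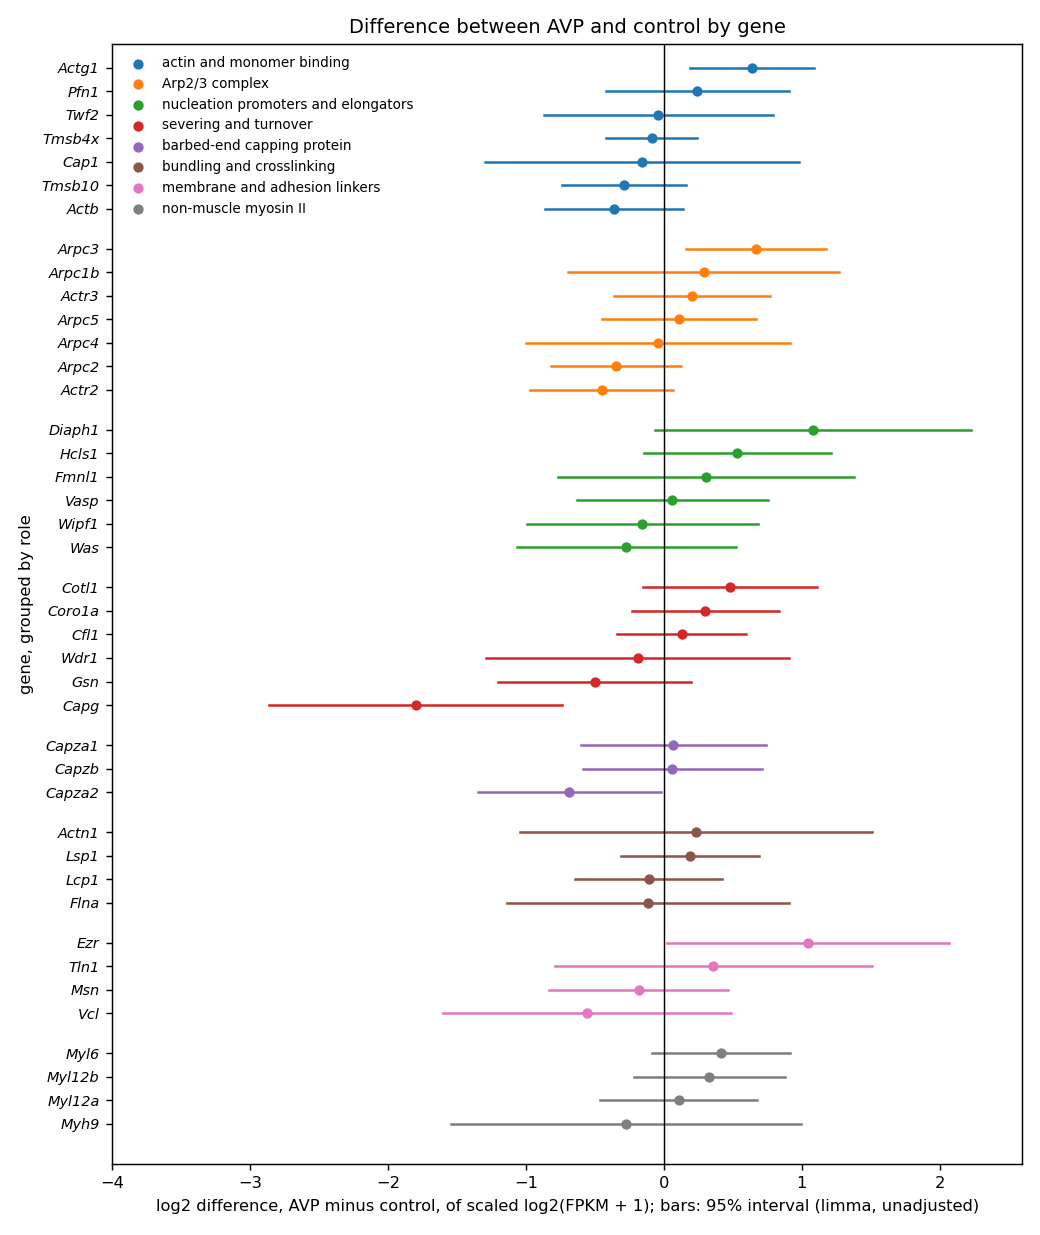
Fitted difference between AVP and control for each gene described here (x axis, log2 scale, AVP minus control, of scaled log2(FPKM + 1)); points are limma estimates, bars their unadjusted 95% intervals, colours the roles. Intervals of Actg1, Arpc3 and Ezr lie above 0 and those of Capg and Capza2 below 0, while the other intervals shown include 0.

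Among actin itself and the monomer-binding proteins, gamma-actin stood apart from beta-actin. Actg1, which encodes the cytoplasmic gamma-actin (gene identifier 11465, chromosome 11 from 120345687 to 120348495 in GRCm38), was at 545, 515 and 569 FPKM in the control libraries and at 746, 997 and 685 FPKM with AVP. Every AVP library was above every control library, with a log2 difference of 0.64 (SE 0.19, adjusted p = 0.358 by limma). Actb was at 11794, 9461 and 11757 FPKM in the controls against 8797, 9792 and 6051 FPKM with AVP, so as deposited AVP replicates 1 and 3 were below every control, after scaling AVP replicate 3 alone was, and the groups overlapped. Tmsb4x, the most abundant gene of the set, was at 49326, 43187 and 48676 FPKM in the controls against 41932, 40868 and 42492 FPKM with AVP. All 3 deposited AVP values lay below the controls, but after libraries were scaled the groups overlapped, and the log2 difference was -0.09 (SE 0.14, 95% interval -0.42 to 0.24). AVP replicate 1, which had the most red cell RNA, was also the library that scaling raised most, with a factor of 0.892. Tmsb10, the related thymosin beta 10, averaged 624 ± 71.7 FPKM in the controls against 483 ± 66.3 FPKM with AVP (SD, n = 3). Pfn1, encoding profilin 1, which feeds monomers to filament ends, averaged 1137 ± 170 and 1341 ± 589 FPKM (SD, n = 3), the wide AVP spread coming from 2006 FPKM in AVP replicate 2. The cyclase-associated protein gene Cap1, whose product recharges actin monomers, averaged 12.7 ± 3.44 and 11.1 ± 4.43 FPKM, and the twinfilin gene Twf2, encoding a monomer-binding protein, 46.1 ± 5.16 and 43.5 ± 12.5 FPKM (SD, n = 3).

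The subunits of the Arp2/3 complex, which builds branched filaments, differed in direction. Arpc3 (gene identifier 56378, chromosome 5 from 122391878 to 122406181) was at 259, 260 and 255 FPKM in the controls against 301, 519 and 374 FPKM with AVP. The controls were within a few FPKM of each other and all 3 AVP libraries were above them, with a log2 difference of 0.67 (SE 0.22, adjusted p = 0.408 by limma). Actr2, encoding the actin-like subunit Arp2, was at 172, 162 and 149 FPKM in the controls against 106, 108 and 120 FPKM with AVP. Here every AVP library was below every control, with a log2 difference of -0.45 (SE 0.23, adjusted p = 0.661 by limma). Arpc2, the most abundant subunit transcript, was at 808, 564 and 685 FPKM in the controls against 425, 525 and 577 FPKM with AVP, and its groups overlapped (log2 difference -0.34, SE 0.20). Of the other subunits, Actr3, encoding Arp3, averaged 148 ± 27.8 and 159 ± 3.24 FPKM (SD, n = 3). Arpc5 averaged 397 ± 87.9 and 401 ± 56.8 FPKM, Arpc1b 252 ± 110 and 281 ± 104 FPKM, and Arpc4 113 ± 38.5 and 104 ± 40.3 FPKM (SD, n = 3). Arpc1b and Arpc4 had low libraries in each group, control replicate 2 (125 and 69.6 FPKM) and AVP replicate 3 (176 and 62.1 FPKM), so their spread within a group exceeded the difference between groups. Over the 7 subunits, 4 differences lay above 0 and 3 below.

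Among the factors that start and lengthen filaments, Diaph1 and Hcls1 were the genes whose groups did not overlap, and both were higher after AVP. Diaph1, encoding the formin mDia1, which elongates straight filaments, was at 15.6, 9.15 and 7.03 FPKM in the controls against 29.6, 21.4 and 14.9 FPKM with AVP. As deposited, AVP replicate 3 lay just under control replicate 1, and after scaling the gap was 15.05 against 15.06. The groups overlapped again with median of ratios scaling, with the 10 FPKM filter and without control replicate 2 or 3. Diaph1 was thus apart in 12 of 17 settings and the other 9 genes in all 17. Settings that change only the pseudocount or the test cannot alter overlap, and leaving out a library can create it only through rescaling. These counts therefore add little to the separation itself. The log2 difference of Diaph1 was 1.08 (SE 0.50, adjusted p = 0.616 by limma). Hcls1, encoding the haematopoietic cortactin relative HS1, which stabilises Arp2/3 branches, was at 50.2, 41.8 and 48.6 FPKM in the controls against 66.4, 54.5 and 73.5 FPKM with AVP, all 3 above the controls, with a log2 difference of 0.53 (SE 0.29). Vasp, the most abundant of this group, encodes a protein that speeds filament growth at its tip, and was at 95.8, 74.2 and 57.1 FPKM in the controls against 63.7, 69.4 and 88.3 FPKM with AVP, without separation. Was, encoding WASP, the blood-cell activator of Arp2/3, averaged 43.3 ± 5.63 and 34.0 ± 7.4 FPKM, and Wipf1, encoding its partner WIP, 43.7 ± 16.8 and 35.3 ± 2.08 FPKM (SD, n = 3). The formin gene Fmnl1 averaged 16.6 ± 7.18 and 18.9 ± 4.99 FPKM (SD, n = 3).

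Capg showed the largest difference of the set. It encodes a gelsolin-family protein that caps filaments without cutting them and is abundant in macrophages. Capg (gene identifier 12332, chromosome 6 from 72538282 to 72562983) was at 38.4, 66.0 and 53.6 FPKM in the controls against 17.0, 7.65 and 17.6 FPKM with AVP. The highest AVP library was thus well under the lowest control, with a log2 difference of -1.80 (SE 0.46, 95% interval -2.86 to -0.74, adjusted p = 0.295 by limma). The lowest of these values corresponds to roughly 120 fragments per kilobase of transcript, an estimate from the files' smallest steps. Monocytes also carry Capg. The sum of the 10 monocyte markers overlapped between the groups, and its largest part was Cd74, which B cells carry too. As deposited, each marker of that list except Ms4a4c overlapped as well. Ms4a4c was lower in every AVP library (115, 105 and 4.03 FPKM) than in every control (121, 173 and 174 FPKM). Ly6c2, for instance, was at 122, 131 and 388 FPKM in the controls against 398, 333 and 87.0 FPKM with AVP. The part of monocyte RNA in the Capg values was not tested. Gsn, encoding gelsolin, which cuts and caps filaments, was also lower after AVP, at 62.7, 46.2 and 68.4 FPKM in the controls against 39.1, 37.3 and 39.4 FPKM with AVP. The 3 AVP values were close together and below every control, with a log2 difference of -0.50 (SE 0.30, adjusted p = 0.738 by limma). The other 4 genes of severing and turnover overlapped between groups. Cfl1, encoding cofilin 1, the main filament-severing protein, was at 695, 648 and 821 FPKM in the controls against 727, 902 and 625 FPKM with AVP, and its groups overlapped. Wdr1, encoding the cofilin cofactor AIP1, averaged 42.3 ± 14.7 and 37.5 ± 23.6 FPKM (SD, n = 3). Coro1a, encoding coronin 1A, averaged 362 ± 49.8 and 427 ± 100 FPKM, and Cotl1, encoding the filament-binding coactosin-like protein, 122 ± 16.2 and 162 ± 32.4 FPKM (SD, n = 3).

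The barbed-end capping protein is a dimer of an alpha and a beta subunit, and its alpha genes differed from each other. Capza2, encoding the alpha 2 subunit, was at 100.4, 149.6 and 163.9 FPKM in the controls against 72.8, 97.5 and 69.5 FPKM with AVP. All 3 AVP libraries lay below the controls, AVP replicate 2 only just, with a log2 difference of -0.68 (SE 0.29, adjusted p = 0.569 by limma). Capza1, encoding the alpha 1 subunit, averaged 53.8 ± 10.3 and 53.0 ± 6.13 FPKM (SD, n = 3). Capzb, encoding the beta subunit, was at 213, 111 and 166 FPKM in the controls against 136, 178 and 155 FPKM with AVP, and the groups overlapped.

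Bundling and crosslinking genes showed 0 of 4 without overlap, against 13.9% of all genes tested, and 4 genes are too few to differ from that share. Lsp1, encoding the leukocyte-specific filament-binding protein LSP1, was the most abundant, at 728, 556 and 656 FPKM in the controls against 670, 882 and 565 FPKM with AVP (log2 difference 0.19, SE 0.22). Lcp1, encoding the leukocyte bundling protein L-plastin, averaged 295 ± 44 and 258 ± 41.7 FPKM (SD, n = 3). Flna, encoding the crosslinker filamin A, averaged 23.1 ± 9.52 and 18.7 ± 0.333 FPKM, and Actn1, encoding alpha-actinin 1, 7.43 ± 2.49 and 8.46 ± 2.95 FPKM (SD, n = 3).

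Among linkers of actin to the membrane and to adhesion sites, Ezr was higher and Vcl lower after AVP. Ezr, encoding ezrin, which ties filaments to the plasma membrane, was at 37.9, 18.7 and 62.9 FPKM in the controls against 76.3, 65.9 and 69.3 FPKM with AVP. The AVP libraries were close together above widely spread controls, with control replicate 3 just under them, and the log2 difference was 1.04 (SE 0.44, adjusted p = 0.573 by limma); without control replicate 2 it was 0.61. Ezrin is also made in lymphocytes. The B cell markers summed to less in AVP replicates 1 and 3 (1356 and 4331 FPKM) than in any control (lowest 5361 FPKM). AVP replicate 2, at 5362 FPKM, was level with that lowest control. The largest part of the sum in each library was Igkc (3355 to 6228 FPKM in the controls, 653 to 3300 FPKM with AVP). Single B cell markers differed. Igkc, Cd79b and Pax5 were lower in every AVP library, and the others overlapped. Ly6d was higher in AVP replicates 2 and 3 (449 and 466 FPKM) than in any control (highest 404 FPKM). T and NK cell markers were highest in AVP replicate 3, led by Trac at 52.4 FPKM, Nkg7 at 44.3 FPKM and Trbc2 at 33.1 FPKM. The part of lymphocyte RNA in the Ezr values was not tested. Msn, encoding moesin, the most abundant linker of this family here, was at 99.1, 86.0 and 119 FPKM in the controls against 60.4, 107 and 89.7 FPKM with AVP. Vcl, encoding vinculin, which reinforces adhesion sites, was at 14.5, 13.01 and 12.5 FPKM in the controls against 7.27, 7.08 and 10.8 FPKM with AVP. All 3 AVP values were below the controls, with a log2 difference of -0.56 (SE 0.45, adjusted p = 0.806 by limma). Tln1, encoding talin 1, which activates integrins, averaged 6.61 ± 1.162 and 8.22 ± 0.261 FPKM (SD, n = 3).

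The non-muscle myosin II genes, which supply contraction, also showed 0 of 4 without overlap, against 13.9% of all genes tested, again too few to differ. Myl6, encoding an essential light chain, was at 954, 1375 and 858 FPKM in the controls against 1186, 1366 and 1385 FPKM with AVP (log2 difference 0.41, SE 0.22, adjusted p = 0.687 by limma), and control replicate 2 reached the AVP range. The regulatory light chain genes Myl12a and Myl12b averaged 178 ± 17.5 and 853 ± 144 FPKM in the controls against 185 ± 52 and 1032 ± 310 FPKM with AVP (SD, n = 3). Myh9, encoding the heavy chain, averaged 9.81 ± 4.49 and 7.01 ± 1.04 FPKM (SD, n = 3), and lay far below its light chains. Whether transcript length bears on this gap beyond the correction in FPKM was not tested. Of the 4 genes that hold a CArG box, Actg1 was higher after AVP, Vcl lower, and Myl6 and Arpc4 overlapped.

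**Figure D3:**
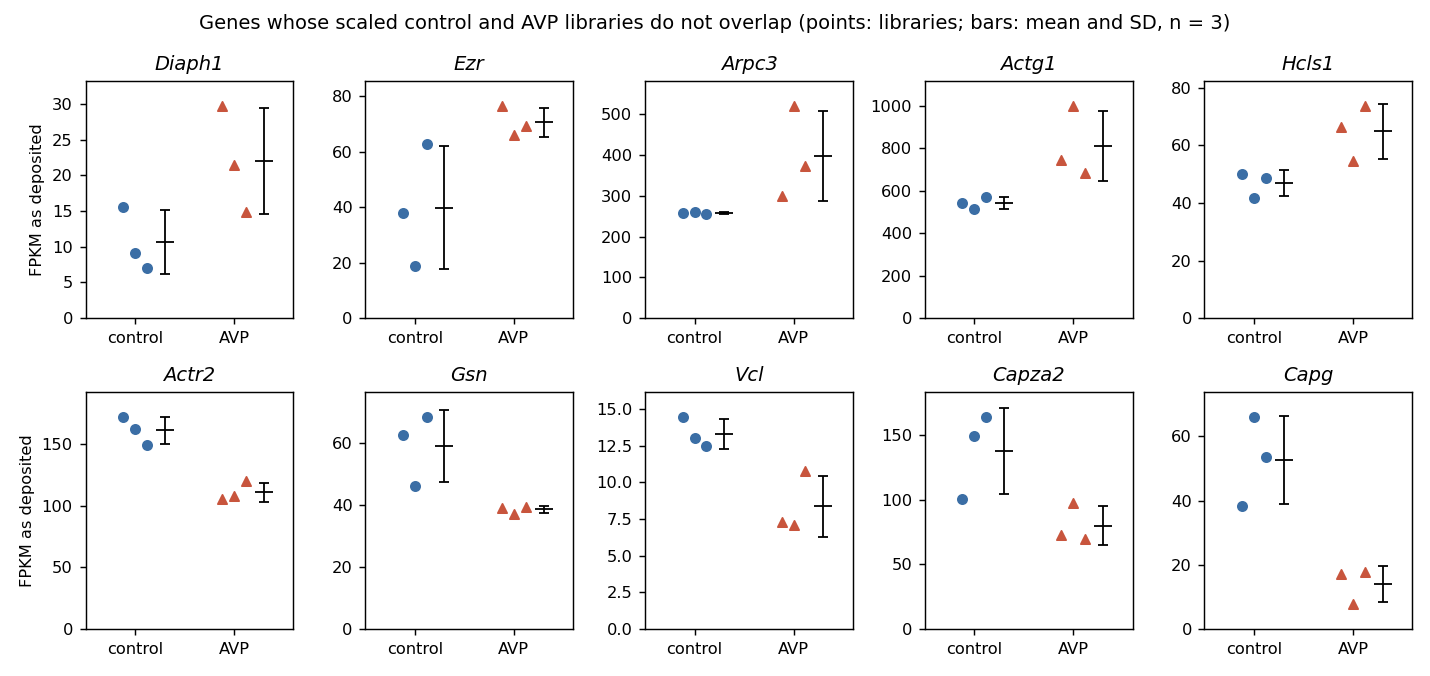
FPKM as deposited of the 10 genes whose scaled control and AVP libraries did not overlap (points, libraries; bars, mean and SD, n = 3 per group; each panel has its own axis from 0). The upper row holds the 5 genes that were higher after AVP and the lower row the 5 that were lower, with Capg the farthest apart; Diaph1 overlaps on this deposited scale.

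For any gene alone, the exact permutation test, two-sided, could not go below p = 0.1 with 3 libraries against 3. Groups without overlap always take that value, so for these 10 genes it restates how they were picked. Which genes stood apart depended in part on single libraries. With the unadjusted limma p under 0.05 as the mark, Capg stayed under it in all 17 settings run, Actg1 in 16, Arpc3 in 15, Capza2 in 11 and Ezr in 8. The Arpc3 difference was 0.51 without AVP replicate 2, its highest library. Without AVP replicate 3, 12 genes were higher and 7 lower without overlap, with 27.8% of all genes tested then not overlapping. The extremes fell unevenly over the libraries. The highest scaled value fell in control replicate 1, AVP replicate 1 and AVP replicate 2 for 11 of the 45 genes each, against 15.8%, 19.1% and 14.7% of all genes tested. The lowest fell in control replicate 2 and AVP replicate 3 for 11 each, against 19.6% and 16.1% of all genes tested. AVP replicate 3 was the highest for 1 gene, against 17.7% of all genes tested.

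Related genes were also compared within each library, where a share does not depend on how libraries are scaled. The 10 pairs were picked after the values were seen, so their shares are a description. Actg1 made up 4.41%, 5.17% and 4.62% of the summed FPKM of Actg1 and Actb in the control libraries and 7.82%, 9.24% and 10.2% after AVP. Gamma-actin transcripts were thus a larger share of cytoplasmic actin transcripts in each AVP library, with Actg1 above every control in all 3 and Actb, as deposited, below every control in AVP replicates 1 and 3 (after scaling, in AVP replicate 3). Capza2 made up 68.1%, 75.5% and 71.4% of the capping alpha subunit pair in controls and 61.2%, 63.9% and 54.6% after AVP. Ezr made up 27.6%, 17.8% and 34.6% of the ezrin and moesin pair in controls and 55.8%, 38.0% and 43.6% after AVP. Dstn, encoding destrin, a relative of cofilin, made up 0.781%, 3.53% and 3.1% of its pair with Cfl1 in controls and 5.29%, 10.03% and 4.18% after AVP. Myl12a (17.4% ± 1.58 and 15.3% ± 0.416, SD, n = 3) and Actn4 beside Actn1 (27.5% ± 1.13 and 16.3% ± 8.12, SD, n = 3) had lower shares in every AVP library than in every control. The shares of Tmsb10 beside Tmsb4x (1.32% and 1.14% on average), Arpc1a beside Arpc1b (21.2% and 21.6%), Arpc5l beside Arpc5 (16.0% and 9.5%) and Rdx beside Msn (9.39% and 3.88%) overlapped. Actin, thymosin, cofilin and light chain genes have near-identical relatives or processed pseudogenes, so the split of fragments between copies is uncertain.

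**Figure D4:**
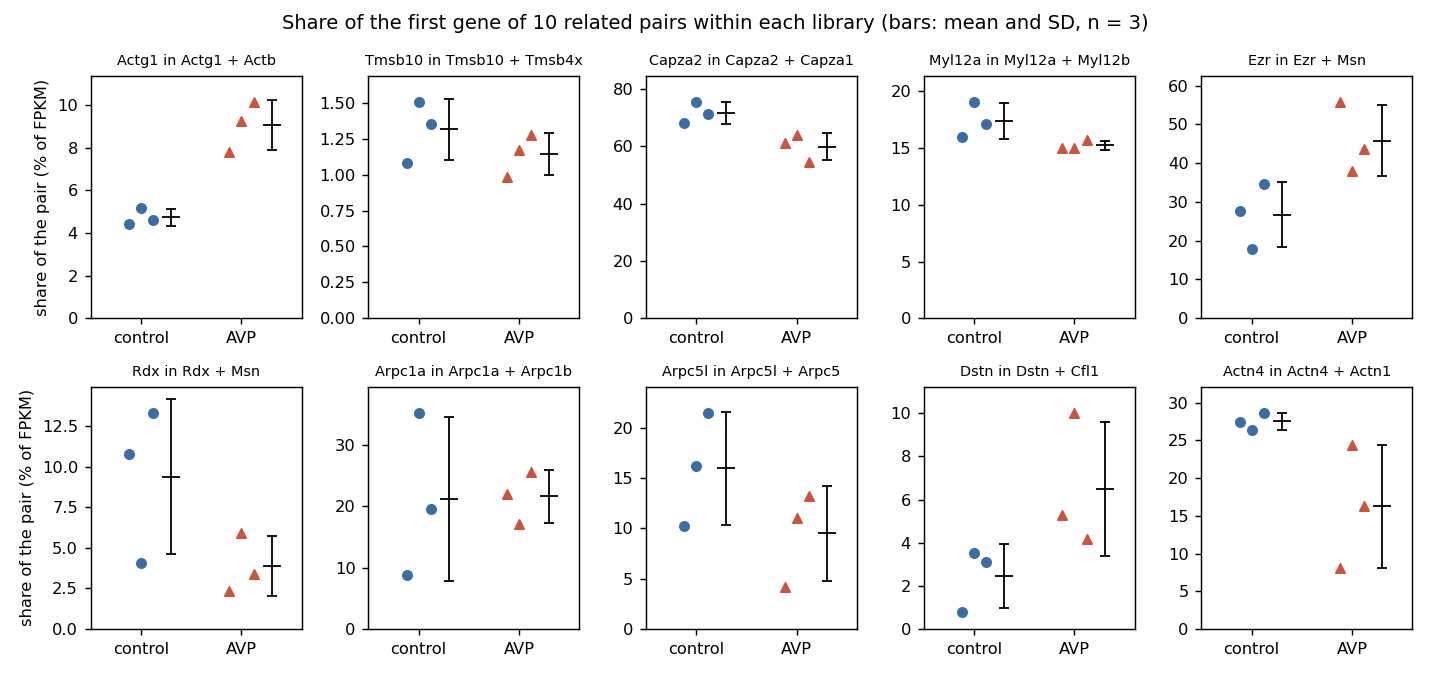
Share of the first gene in the summed FPKM of a pair of related genes (y axis, percent, each from 0) in each control and AVP library, with mean and SD (n = 3). Actg1 beside Actb, Ezr beside Msn and Dstn beside Cfl1 have higher shares in all 3 AVP libraries, Capza2, Myl12a and Actn4 lower ones, and the other 4 pairs overlap.

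A wider list of 115 other genes of the actin pathway, among them nucleators, cappers, myosins and adhesion linkers, placed these values beside the rest of the pathway. Of these, 90 passed the filter and 0 passed an adjusted p of 0.05 over all genes by limma; at an unadjusted p under 0.05, 7 were higher and 1 lower, 8.89% against 8.47% of all genes tested. Their groups did not overlap in 18 of 90 (20%), 10 higher and 8 lower, against 13.9%. The smallest p belonged to Tagap, encoding a GTPase-activating protein, at 12.8, 5.77 and 5.06 FPKM in the controls against 66.8, 70.4 and 65.9 FPKM with AVP (log2 difference 3.13, SE 0.43, adjusted p = 0.0659 by limma). Under the 10 FPKM filter its adjusted p by limma was 0.0328; over all 17 settings this was the only 1 under 0.05. Zyx, encoding the adhesion-site protein zyxin, averaged 143 ± 26.6 FPKM in the controls against 208 ± 13.6 FPKM with AVP (SD, n = 3), and Tpm4, encoding a tropomyosin that coats filaments, 109 ± 14.9 and 175 ± 53.5 FPKM, its groups overlapping as deposited and not after scaling. Dstn (18.5 ± 11.4 and 56.2 ± 39.1 FPKM), Svil, encoding the membrane-linked supervillin (12.2 ± 2.54 and 24.2 ± 4.84 FPKM), Cdc42se1, encoding a small CDC42 effector (67.9 ± 18.3 and 105 ± 23.6 FPKM), and Add1, encoding the capping protein adducin 1 (6.61 ± 3.93 and 14.1 ± 5.41 FPKM), were likewise higher after AVP (SD, n = 3). Lower after AVP were Marcks, encoding a filament-binding substrate of protein kinase C (247 ± 34.2 and 158 ± 14.7 FPKM), Arpc5l, an alternative Arp2/3 subunit (73.1 ± 20.7 and 41.0 ± 18.3 FPKM), and Swap70, encoding a Rac-binding protein (10.7 ± 3.21 and 4.11 ± 2.2 FPKM; SD, n = 3). Dstn was carried in part by AVP replicate 2 (101 FPKM, the other AVP libraries being lower): its log2 difference of 1.67 was 1.20 without that library and 0.99 without control replicate 1. Single libraries also moved Arpc5l, from -0.83 to -0.44 without AVP replicate 1, and Add1, from 1.19 to 0.64 without control replicate 2, while Swap70 stood at -0.80 in place of -1.20 without AVP replicate 3. None of these 9 passed the test (limma adjusted p from 0.487 to 0.687). The genes of serum response factor itself, Srf, and its cofactor Mrtfa overlapped between groups. Both were low, Srf at 2.37 FPKM on average in the controls and 1.33 FPKM with AVP, and Mrtfa at 4.61 and 3.05 FPKM. With SEs of 0.56 and 0.74 on the log2 scale, this overlap does not show that they were unchanged.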

How the data were processed

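Neutrophil RNA from 3 control and 3 AVP samples was sequenced in read pairs from TruSeq libraries, per the labels' protocols, and samples were grouped by their labels. Per the submitters' processing notes, the authors used the mm10 build and, with roles not given in the sources used here, DESeq2 2.11.40.6, featureCounts 1.6.4, HISAT2 2.1, cutadapt 1.16.5 and bcl2fastq 2.19. All deposited values are taken to be FPKM: the files name no unit, and this was inferred from values that are not whole and total 755140 to 829725 per library. Depth, estimated from the value 1 fragment adds to pseudogenes, was about 14200000 to 16800000 fragments.

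The test kept genes that reached 1 FPKM in 3 or more libraries. Scaling used trimmed mean log ratios against the libraries' geometric mean, cutting 30% of ratios and 5% of levels from each end, and limma 3.58.1 (R 4.3.3) was fitted to log2(FPKM + 1) over all genes with an intensity trend and Benjamini-Hochberg adjustment. On that scale the change of low genes is understated; printed levels are before scaling. On data simulated for AVP against control with 8523 genes, limma called 4 of 67 genes given a log2 difference of 1, 32 of 67 given 2 and 58 of 66 given 4, with 2 false calls. Differences were placed only in genes of higher mean level, drawn from all genes, and the noise was independent. Under the 10 FPKM filter the median SE was 0.281 for the 42 members and 0.501 for all genes. The rates therefore do not carry over directly to the 45 genes, and a gene that was not called may still differ. The 45 genes and the lists were chosen with earlier results of these data known, and adjustment was over all genes only. Counts cover all 45 genes unless a smaller number is given (42 under the 10 FPKM filter, 40 with promoters), and the values of 1 role group are not reported here; values in every library are given for genes whose groups did not overlap or with an unadjusted p under 0.05 and for the most abundant gene of each role, and from the wider list 10 genes are named, ranked by p among genes without overlap and with a mean of at least 5 FPKM. Actb and 10 related pairs were added after values were seen. Identifiers, coordinates and promoters are from RefSeq tables of GRCm38. No 2 libraries shared over 0.0091% of their values above 0. Tables and plots used Python 3.11.15, pandas 2.3.3, numpy 2.4.6 and matplotlib 3.10.9.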

Additional observations from a re-analysis of the deposited data

How the results depend on the processing

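Of 463 log2 differences recomputed for 29 genes under the 16 alternatives, 457 kept their direction and their side of the threshold. No member passed an adjusted p of 0.05 under any of them (lowest 0.236). Genes near 0 turned: Capzb was -0.021 on the deposited scale and -0.18 to 0.27 with a library left out (-0.18 without control replicate 2), and Vasp was -0.019 on the deposited scale and -0.13 to 0.23 with a library left out, -0.13 without control replicate 3 and -0.06 without AVP replicate 3. Over all 45 genes, 27 kept their sign in every setting. The count of all genes called higher was 11 with the 10 FPKM filter, where 1 gene of the wider list (Tagap) was called, 3 with a pseudocount of 5, 1 without the intensity trend and 0 to 4 with a library left out (4 without control replicate 3). Members at an unadjusted p under 0.05 numbered 0 higher and 1 lower without the intensity trend (7.87% of all genes), and 1 to 3 higher and 1 to 2 lower with a library left out (7.24% to 9.66% of all genes). Members whose groups did not overlap numbered 5 to 12 higher and 5 to 9 lower with a library left out, where fewer samples make separation easier (22.7% to 27.8% of all genes). Genes of the wider list at an unadjusted p under 0.05 numbered 2 higher and 2 lower on the deposited scale (8.47% of all genes). Without the trend they numbered 3 higher and 2 lower (7.87% of all genes), and with no filter 5 higher and 2 lower (4.45% of all genes). With a library left out they numbered 2 to 7 higher and 0 to 2 lower (7.24% to 9.66% of all genes). With the replicate number as a block, the unadjusted p was under 0.05 for 3 higher and 1 lower members (7.88% of all genes), and for 3 higher and 0 lower genes of the wider list. Samples sharing a number did not visibly vary together (correlations of 0.02, -0.01 and -0.04). With 3 libraries per group such correlations cannot exclude a pairing. The cause of these shifts was not tested. The median of the 45 genes ranged from -0.07 to 0.08.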

Other observations

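Other actin genes, named after their values were seen, were searched for beside beta- and gamma-actin. The muscle actin genes Acta1, Actc1 and Actg2 and the actin-like gene Actbl2 were listed at 0 in all 6 libraries. Acta2, encoding smooth muscle alpha-actin, was at 20.3, 18.8 and 31.9 FPKM in the controls against 7.67, 18.3 and 1.49 FPKM with AVP, and fragments shared with Actb could not be told apart from its own. The named pseudogene Actr3-ps was at 5.78 to 8.86 FPKM in controls and 7.51 to 9.94 FPKM after AVP.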
